A study of Arabidopsis thaliana with 22 samples.

Results

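The ATG8 proteins of Arabidopsis and the enzyme ATG3 form the lipid-conjugation step of autophagy, and their transcripts were followed here through the growth of 1 leaf at ambient and elevated CO2. Members were the probe sets annotated to exactly 1 gene among the 9 ATG8 genes and ATG3. This rule uses gene identity and no measured value, but the genes were chosen with earlier results of these data known. All 10 genes had 1 such probe set each, 10 of the 12511 probe sets tested and of the 6782 that name exactly 1 gene. They were ATG8A (AT4G21980, listed as APG8A), ATG8B (AT4G04620), ATG8C (AT1G62040), ATG8D (AT2G05630), ATG8E (AT2G45170), ATG8F (AT4G16520), ATG8G (AT3G60640), ATG8H (AT3G06420), ATG8I (AT3G15580, listed under the older symbol APG8H with ATG8I as its synonym) and ATG3 (AT5G61500).

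In autophagy a cell encloses part of its own cytoplasm in a double-membraned vesicle, the autophagosome, and delivers it to the vacuole for breakdown and reuse. ATG8 is a small ubiquitin-like protein that is cut at its C-terminus by the protease ATG4, activated by the E1-like enzyme ATG7, passed to the E2-like enzyme ATG3 and joined to phosphatidylethanolamine in the growing membrane, where it also binds cargo receptors. In leaves the pathway is known for recycling proteins and chloroplast material in darkness, under starvation and during senescence. Plants carry a family of ATG8 genes, and ATG8H and ATG8I differ from the other members in having an already exposed C-terminal glycine, so that they need no cutting by ATG4.

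The study grew wild-type Col-0 Arabidopsis at 370 ppm CO2 for 7 days and then divided the plants at random between 2 growth chambers. Growth continued at 370 ppm (ambient) or 750 ppm (elevated). Leaf 10 was sampled as a primordium, during rapid expansion and when mature, and total RNA of each sample was hybridised to 1 Affymetrix array, 22 arrays in all. There were 4 arrays per CO2 level in primordia, 3 in expanding leaves and 4 in mature leaves, and all plants were of the same wild-type genotype under a day of 10 h at 21 °C and 300 µmol of photosynthetic light per square metre and second, with a night of 14 h at 18 °C. Each primordia replicate pooled 20 plants, which were frozen whole and soaked in an RNA-preserving solution before dissection, whereas expanding and mature leaves were frozen whole, so in comparisons with primordia leaf stage and harvest method cannot be told apart. The labels name 2 chambers, taken here as 1 per CO2 level. On that reading an effect of CO2 and an effect of the chamber cannot be told apart.

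Values are log2 signals centred so that the median of each array is 0, and a level therefore says how far a probe set lies above or below the middle of its array. They were not set against each other between probe sets, because probe sets differ in how strongly they respond to the same RNA. The first principal component of all 12511 probe sets held 81.3% of the variance and ordered the arrays by stage, from primordia (scores of -81.4 to -63.5) through expanding leaves (10.5 to 32.4) to mature leaves (50.2 to 63.9). Arrays of 1 group correlated at Pearson's r of 0.969 to 0.992. On the second component elevated mature replicates 3 and 4 lay away from the remaining mature arrays. The cell-division genes AUR1, a mitotic Aurora kinase, and PROLIFERA (PRL), a replication-licensing factor, changed from primordia to ambient mature leaves by -3.41 and -2.83 log2 units, and all 4 measured photosynthesis genes (LHCB4.1, PSBY, ATPC1 and PRK) rose from primordia to expanding leaves, a step in which 35.1% of probe sets were called higher at ambient and 36.0% at elevated CO2. Of the leaf-primordium markers YAB3 and PHV fell in that step at both CO2 levels, whereas YAB5, another polarity gene, rose. In whole organs a change in the mix of cell types and a change in RNA per cell cannot be told apart.

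Every ATG8 gene was higher in mature leaves than in primordia, at both CO2 levels, while ATG3 was not. The ratio of mature to primordial signal at ambient CO2 ran from 1.49-fold for ATG8G to 3.02-fold for ATG8F, and at elevated CO2 from 1.55-fold for ATG8E to 3.44-fold for ATG8F. ATG3, the E2-like enzyme that hands ATG8 to the lipid, changed by -0.016 ± 0.08 log2 units at ambient and -0.059 ± 0.08 at elevated CO2 (moderated SE, limma adjusted p = 0.862 and 0.505, 4 arrays against 4). All 9 ATG8 genes were called higher at both levels, at an adjusted p under 0.05. Of all probe sets 39.8% were called higher at ambient CO2, 39.2% at elevated CO2 and 35.5% at both, so a stage change is common on these arrays. The median change of the 10 members was 0.80 at ambient and 1.04 at elevated CO2, against 0.03 and -0.01 over all probe sets.

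**Figure D1:**
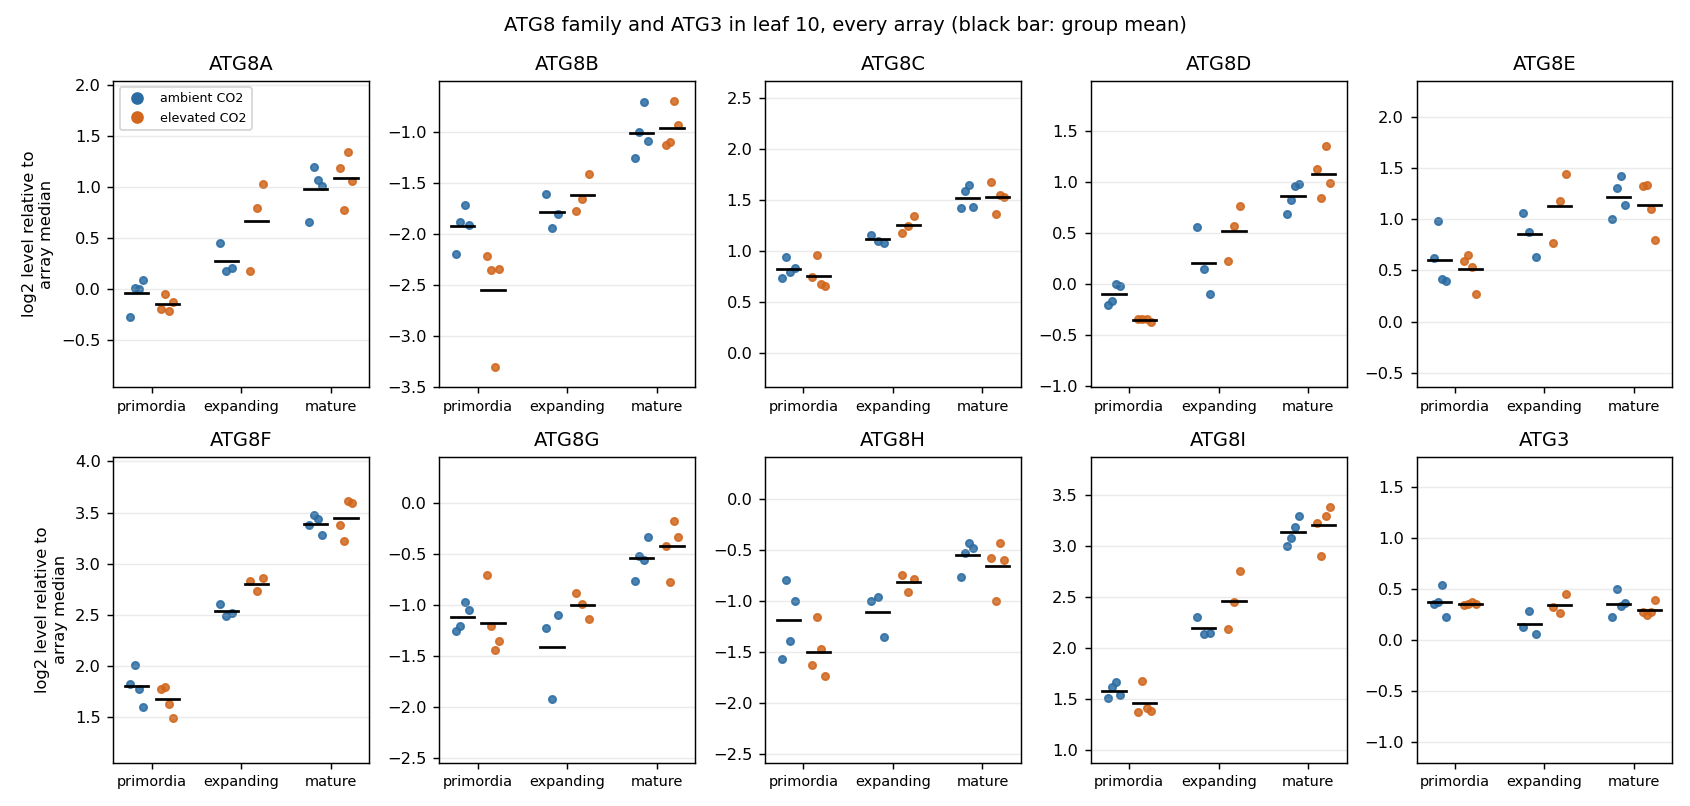
Each panel plots the log2 level of 1 gene (vertical axis, array median at 0) on all 22 arrays at 3 leaf stages (horizontal axis), with points for single arrays, ambient and elevated CO2 in separate colours, and bars for group means. The 9 ATG8 genes climb toward mature leaves, whereas ATG3 stays between 0.05 and 0.54 on every array.

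ATG8F had the highest ratio at both CO2 levels. At ambient CO2 its log2 level was 1.82, 2.01, 1.77 and 1.59 on the 4 primordia arrays, 2.61, 2.49 and 2.51 on the 3 expanding arrays and 3.38, 3.47, 3.44 and 3.28 on the 4 mature arrays. At elevated CO2 it was 1.77, 1.79, 1.63 and 1.48 in primordia, 2.83, 2.73 and 2.86 in expanding leaves and 3.37, 3.22, 3.61 and 3.60 in mature leaves. The 3 stages did not overlap at either CO2 level, every expanding array lying above every primordia array and below every mature array. From primordia to mature leaves ATG8F rose by 1.60 ± 0.10 log2 units at ambient CO2 (limma adjusted p = 6.88e-12) and by 1.78 ± 0.10 at elevated CO2 (adjusted p = 1.29e-12).

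ATG8I, one of the pair with an exposed terminal glycine, followed a similar course. At ambient CO2 its level was 1.51, 1.62, 1.67 and 1.54 in primordia, 2.31, 2.14 and 2.15 in expanding and 3.00, 3.08, 3.19 and 3.29 in mature leaves. At elevated CO2 it was 1.37, 1.68, 1.41 and 1.39 in primordia, 2.19, 2.46 and 2.76 in expanding and 3.23, 2.90, 3.30 and 3.38 in mature leaves. The stages again formed 3 separate bands at each CO2 level. The rise from primordia to mature leaves was 1.55 ± 0.12 log2 units at ambient and 1.74 ± 0.12 at elevated CO2, which is 2.93-fold and 3.35-fold (adjusted p = 1.06e-10 and 1.72e-11). ATG8H, the other member of the pair, rose by 0.63 ± 0.16 and 0.85 ± 0.16 (adjusted p = 0.00113 and 5.59e-05). Its primordia arrays stood at -1.57, -0.79, -1.39 and -0.995 at ambient and -1.62, -1.16, -1.47 and -1.74 at elevated CO2, and its mature arrays at -0.76, -0.53, -0.43 and -0.48 and -0.58, -1.001, -0.44 and -0.60. The ambient primordia arrays of ATG8H spread widely, and the lowest mature elevated array still lay above the highest primordia elevated array.

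Among the members that need cutting by ATG4, ATG8A and ATG8D followed similar courses. ATG8A was at -0.27, 0.01, -0.01 and 0.09 in ambient primordia, 0.45, 0.17 and 0.20 in ambient expanding leaves and 0.66, 1.19, 1.07 and 1.01 in ambient mature leaves. ATG8D was at -0.21, -0.17, -0.0049 and -0.02, at 0.56, 0.14 and -0.10 and at 0.69, 0.82, 0.96 and 0.98 in the same groups. In both genes the mature arrays lay above all others at ambient CO2, and for ATG8D the expanding arrays overlapped the primordia arrays. At elevated CO2 ATG8A was at -0.20, -0.05, -0.22 and -0.13 in primordia, 0.17, 0.79 and 1.03 in expanding and 1.19, 0.78, 1.34 and 1.05 in mature leaves. ATG8D was at -0.35, -0.34, -0.35 and -0.38, at 0.22, 0.57 and 0.76 and at 1.13, 0.84, 1.35 and 0.99 in those groups. Elevated primordia had the lowest mean of both genes, and the elevated expanding arrays of ATG8A spread widely around their mean (0.67 ± 0.44, SD, n = 3), with replicate 1 the lowest for both genes. From primordia to mature leaves ATG8A rose by 1.02 ± 0.15 at ambient and 1.24 ± 0.15 at elevated CO2, and ATG8D by 0.96 ± 0.13 and 1.43 ± 0.13 (adjusted p from 2.80e-09 to 3.64e-06).

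ATG8C rose by 0.69 ± 0.086 at ambient and 0.77 ± 0.086 at elevated CO2, from means of 0.83 ± 0.085 and 0.76 ± 0.14 in primordia to 1.52 ± 0.11 and 1.53 ± 0.13 in mature leaves (SD, n = 4). ATG8E rose by 0.62 ± 0.16 and 0.63 ± 0.16, from 0.60 ± 0.27 and 0.51 ± 0.17 to 1.22 ± 0.18 and 1.14 ± 0.25. Within each CO2 level no mature array of either gene overlapped a primordia array. ATG8G had the smallest ambient rise, 0.58 ± 0.17 (adjusted p = 0.00433), and rose by 0.75 ± 0.17 at elevated CO2. ATG8G was also the single ATG8 gene with overlapping arrays in this comparison, since its elevated primordia replicate 1, at -0.70, was above mature elevated replicate 2, at -0.77. Mature arrays all lay above primordia arrays for 9 of 10 members at ambient and 8 at elevated CO2. Over all probe sets the shares were 36.8% and 35.8%.

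ATG8B lay below the array median on every array. It was at -2.19, -1.88, -1.71 and -1.92 in ambient primordia, -1.61, -1.95 and -1.80 in ambient expanding leaves and -1.26, -0.999, -0.71 and -1.09 in ambient mature leaves. At elevated CO2 it was at -2.22, -2.35, -3.30 and -2.34 in primordia, -1.78, -1.66 and -1.42 in expanding and -1.13, -1.10, -0.70 and -0.93 in mature leaves. Its lowest group was elevated primordia, with replicate 3 at -3.30 far below the other 3. It rose to mature leaves by 0.91 ± 0.18 at ambient and 1.59 ± 0.18 at elevated CO2, and the second of these values was 1.34 without that array.

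ATG3 showed no such course. It was at 0.35, 0.37, 0.54 and 0.22 in ambient primordia, 0.12, 0.28 and 0.05 in ambient expanding leaves and 0.23, 0.49, 0.33 and 0.36 in ambient mature leaves. At elevated CO2 it was at 0.34, 0.35, 0.37 and 0.35, at 0.32, 0.26 and 0.44 and at 0.27, 0.25, 0.28 and 0.39 in the same stages. Primordia and mature arrays of ATG3 overlapped at both CO2 levels, and the 95% intervals of the change were -0.18 to 0.15 at ambient and -0.23 to 0.11 at elevated CO2. The difference between the genes was tested directly by subtracting the ATG3 value from each ATG8 value on the same array, a quantity whose absolute size has no meaning between probe sets but whose change does. For all 9 ATG8 genes, at both CO2 levels, that difference was higher on all 4 mature arrays than on any primordia array. An exact two-sided permutation test gave p = 0.0286 in each of these 18 comparisons, the smallest value that 70 splits of 4 arrays against 4 allow. All 18 subtract the same ATG3 probe set, and nearly all ATG8 genes separated these arrays without the subtraction. They are therefore not independent results. The mature minus primordia change of that difference ran from 0.59 (ATG8G) to 1.61 (ATG8F) at ambient CO2 and from 0.69 (ATG8E) to 1.84 (ATG8F) at elevated CO2.

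The course to mature leaves consists of 2 steps, from primordium to expanding leaf and from expanding to mature leaf. From primordia to expanding leaves at ambient CO2 only ATG8C, ATG8F and ATG8I were called higher, 3 of 10 members, against 35.1% of all probe sets. ATG8F rose by 0.74 ± 0.11 log2 units (adjusted p = 5.20e-06), ATG8I by 0.61 ± 0.13 (adjusted p = 2.34e-04) and ATG8C by 0.29 ± 0.093 (adjusted p = 0.00983), the last call being lost when arrays were centred on their 75th percentile (0.21, adjusted p = 0.0577). ATG8A, at 0.32 ± 0.17 (adjusted p = 0.0978), and ATG8D, at 0.30 ± 0.14 (adjusted p = 0.0682), missed the threshold, and ATG8G had a negative value, -0.29 ± 0.18 (adjusted p = 0.169), which was -0.04 without ambient expanding replicate 2. ATG3 was the 1 member called lower in this step, against 31.2% of probe sets, with a change of -0.22 ± 0.086 (adjusted p = 0.0324). That call was lost in 7 of 31 other settings, including the fit on the groups of this step alone (adjusted p = 0.0951).

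At elevated CO2 the same step carried more calls. All ATG8 genes except ATG8G were called higher, 8 of 10 members, against 36.0% of all probe sets. ATG8F rose by 1.14 ± 0.11 (2.20-fold), ATG8I by 1.01 ± 0.13, ATG8B by 0.93 ± 0.20, ATG8D by 0.87 ± 0.14, ATG8A by 0.82 ± 0.17, ATG8H by 0.68 ± 0.17, ATG8E by 0.62 ± 0.17 and ATG8C by 0.50 ± 0.093. ATG8G was at 0.17 ± 0.18 (adjusted p = 0.412) and ATG3 at -0.012 ± 0.086 (adjusted p = 0.906). The median change of the members was 0.75, against 0.02 over all probe sets, and at ambient CO2 it was 0.27 against 0.04. Whether the step itself differed between CO2 levels is the same question as whether the CO2 effect differed between the stages, and its test is given with the CO2 comparisons: no member was called there.

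From expanding to mature leaves at ambient CO2 all ATG8 genes except ATG8E were called higher, 8 of 10 members, against 19.7% of all probe sets. The rises ran from 0.40 ± 0.093 for ATG8C to 0.94 ± 0.13 for ATG8I, with 0.87 ± 0.18 for ATG8G, 0.86 ± 0.11 for ATG8F and 0.77 ± 0.20 for ATG8B. Of the ambient steps ATG8G was called in this one, its expanding arrays at -1.22, -1.92 and -1.09 lying below its mature arrays at -0.76, -0.52, -0.55 and -0.33. ATG8E was at 0.36 ± 0.17 (adjusted p = 0.0928) and ATG3 at 0.20 ± 0.086 (adjusted p = 0.0644). Of 31 other settings ATG8E was called higher in 2 and ATG3 in 3. ATG8H rose by 0.55 ± 0.17, a call that was lost without ambient expanding replicate 3 (0.43, adjusted p = 0.0851).

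At elevated CO2 the estimates of the second step lay below the ambient ones for all 10 members, against 51.1% of probe sets, a difference that no test called. Both steps use the same expanding arrays, so this is not separate from the higher first-step estimates at elevated CO2. ATG8A, ATG8B, ATG8C, ATG8D, ATG8F, ATG8G and ATG8I were called higher, 7 of 10 members, against 16.9% of all probe sets. ATG8I rose by 0.74 ± 0.13 (adjusted p = 1.49e-04), ATG8F by 0.65 ± 0.11 (adjusted p = 1.29e-04), ATG8B by 0.65 ± 0.20 (adjusted p = 0.0133), ATG8G by 0.58 ± 0.18 (adjusted p = 0.0180) and ATG8D by 0.56 ± 0.14 (adjusted p = 0.00427). ATG8C rose by 0.28 ± 0.093 (adjusted p = 0.0237), a call also made in 25 of 31 other settings, and ATG8A by 0.42 ± 0.17 (adjusted p = 0.0494), a call made in 8 of 31. ATG8H was at 0.16 ± 0.17 (adjusted p = 0.477), ATG3 at -0.047 ± 0.086 (adjusted p = 0.700) and ATG8E at 0.0063 ± 0.17 (adjusted p = 0.981), the last turning slightly negative under 2 other scalings. Without expanding elevated replicate 1, the array with the lowest ATG8A and ATG8D of its group, 4 members were called and the ATG8A change was 0.18 (adjusted p = 0.410). Without mature elevated replicates 3 and 4, only ATG8F and ATG8I, 2 members, were called.

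**Figure D2:**
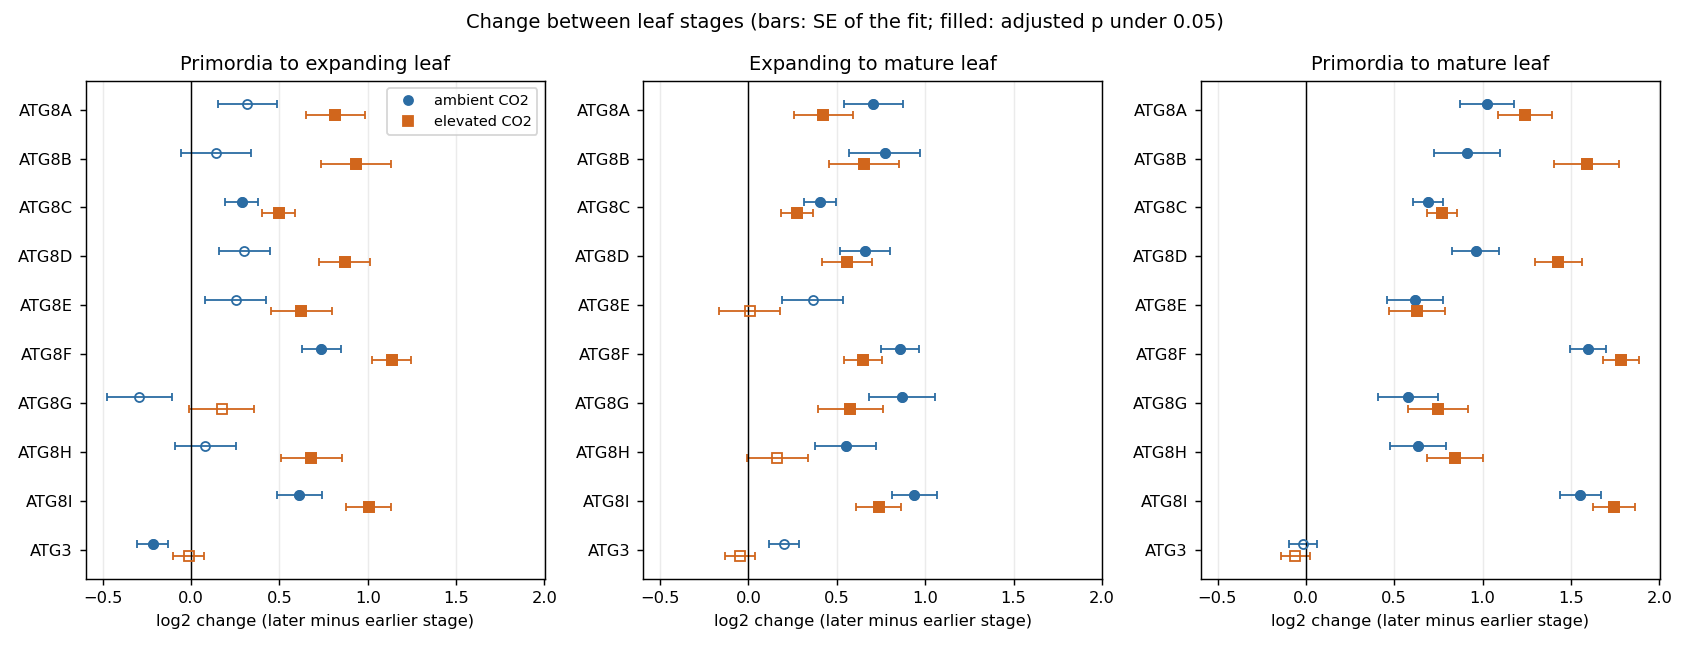
Log2 change of each member (bars are moderated SE) from primordia to expanding, from expanding to mature and from primordia to mature leaves, at ambient and elevated CO2. Filled points passed an adjusted p under 0.05, and the primordia-to-expanding change lies to the right of its ambient value at elevated CO2 for all 10 members.

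Read as an order of levels, ATG8C, ATG8F and ATG8I were lowest in primordia, intermediate in expanding leaves and highest in mature leaves, with each neighbouring pair of stages called different at both CO2 levels. ATG8A, ATG8B and ATG8D had that same order of means, but at ambient CO2 the step from primordia to expanding leaves missed the threshold, with overlapping arrays for ATG8B and ATG8D and separate arrays for ATG8A. For ATG8H the neighbours not called different were primordia and expanding leaves at ambient CO2, and expanding and mature leaves at elevated CO2. For ATG8E the one called step was from primordia to expanding leaves at elevated CO2. For ATG8G the called steps were those from expanding to mature leaves, at both CO2 levels.

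The comparison of CO2 levels within a stage asked whether growth at elevated CO2 moved these transcripts in a leaf of the same developmental label. No member was called at any stage. In mature leaves, where 3.90% of all probe sets were called, the 10 changes ran from -0.10 (ATG8H) to 0.22 (ATG8D) with a median of 0.05, and none had an unadjusted p under 0.05, as 2754 of the 12511 probe sets had. ATG8D, the member with the highest value, stood at 0.69, 0.82, 0.96 and 0.98 on ambient and 1.13, 0.84, 1.35 and 0.99 on elevated mature arrays, which overlapped (0.22 ± 0.13, 95% interval -0.06 to 0.49, adjusted p = 0.353).

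In expanding leaves all 10 members had a positive value at elevated CO2, against 44.1% of probe sets. None was called, nor was any of the 12511 probe sets (0%). The members were read from the same arrays, and within groups 35 of 36 ATG8 pairs correlated positively, so their signs are not independent. At an unadjusted p under 0.05 there were 3 members, against 14.7% of probe sets in either direction and 6.11% upward. These were ATG8F at 0.27 ± 0.12 (95% interval 0.026 to 0.51, limma adjusted p = 0.286), ATG8A at 0.39 ± 0.18 (adjusted p = 0.310) and ATG8G at 0.41 ± 0.20 (adjusted p = 0.339). All 3 elevated expanding arrays of ATG8F lay above all 3 ambient ones. The same held for ATG8C, at 1.18, 1.25 and 1.35 on elevated and 1.16, 1.11 and 1.09 on ambient arrays, and for ATG8H, at -0.74, -0.92 and -0.79 and -0.997, -0.96 and -1.35, which makes 3 of 10 members against 7.43% of probe sets. ATG8A overlapped, because its elevated replicate 1 (0.17) was level with its lowest ambient array, and for ATG8G ambient replicate 2 (-1.92) stood below the other 5. With 1 array left out the ATG8A change ran from 0.21 (without elevated replicate 3) to 0.64 (without elevated replicate 1), and the ATG8G change from 0.16 (without ambient replicate 2) to 0.57 (without ambient replicate 3).

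The other changes in expanding leaves were 0.32 ± 0.15 for ATG8D, 0.29 ± 0.18 for ATG8H, 0.28 ± 0.18 for ATG8E, 0.27 ± 0.13 for ATG8I, 0.19 ± 0.092 for ATG3, 0.17 ± 0.21 for ATG8B and 0.14 ± 0.10 for ATG8C, with adjusted p of all 10 members between 0.286 and 0.751. Other measures moved with them on the same arrays. The first-component scores of the 3 elevated expanding arrays (23.6, 31.0 and 32.4) all lay above those of the 3 ambient ones (21.5, 10.5 and 11.3), on the side of mature leaves. The cell-division gene AUR1 stood at -1.48, -1.49 and -1.23 on the elevated expanding arrays and at -1.12, -0.70 and -0.49 on the ambient ones (-0.63 ± 0.27, adjusted p = 0.280), while PRL, which overlapped, differed by -0.22 ± 0.15. The guard-cell regulator FAMA stood at -1.39, -1.01 and -0.88 on elevated and -0.53, -0.58 and -0.60 on ambient expanding arrays, without overlap (-0.52 ± 0.18, adjusted p = 0.192). YAB3 stood at 0.36, 0.12 and 0.01 against 0.46, 0.41 and 0.47, also without overlap (-0.28 ± 0.12, adjusted p = 0.291). The other measured primordium markers overlapped, PHV with means of -0.34 on elevated and -0.29 on ambient arrays and YAB5 with 0.25 and 0.31. Of all probe sets 12.9% were lower on the elevated expanding arrays without overlap. The 3′ minus 5′ difference of the GAPDH control probes, a measure of RNA integrity and labelling, was 1.41, 1.43 and 1.46 on elevated and 1.18, 1.15 and 1.40 on ambient expanding arrays. The ubiquitin control went the same way (group means 1.75 elevated, 1.55 ambient) and the actin control the other way (4.15 and 4.35). With the mean 3′ minus 5′ difference of these 3 controls as a covariate, the 10 changes ran from 0.14 (ATG8C) to 0.39 (ATG8A), and none was called. Because the controls differ in direction, this covariate does not adjust for the GAPDH difference by itself. The part of the first-component, AUR1, FAMA and YAB3 differences in the ATG8 values was not tested.

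**Figure D3:**
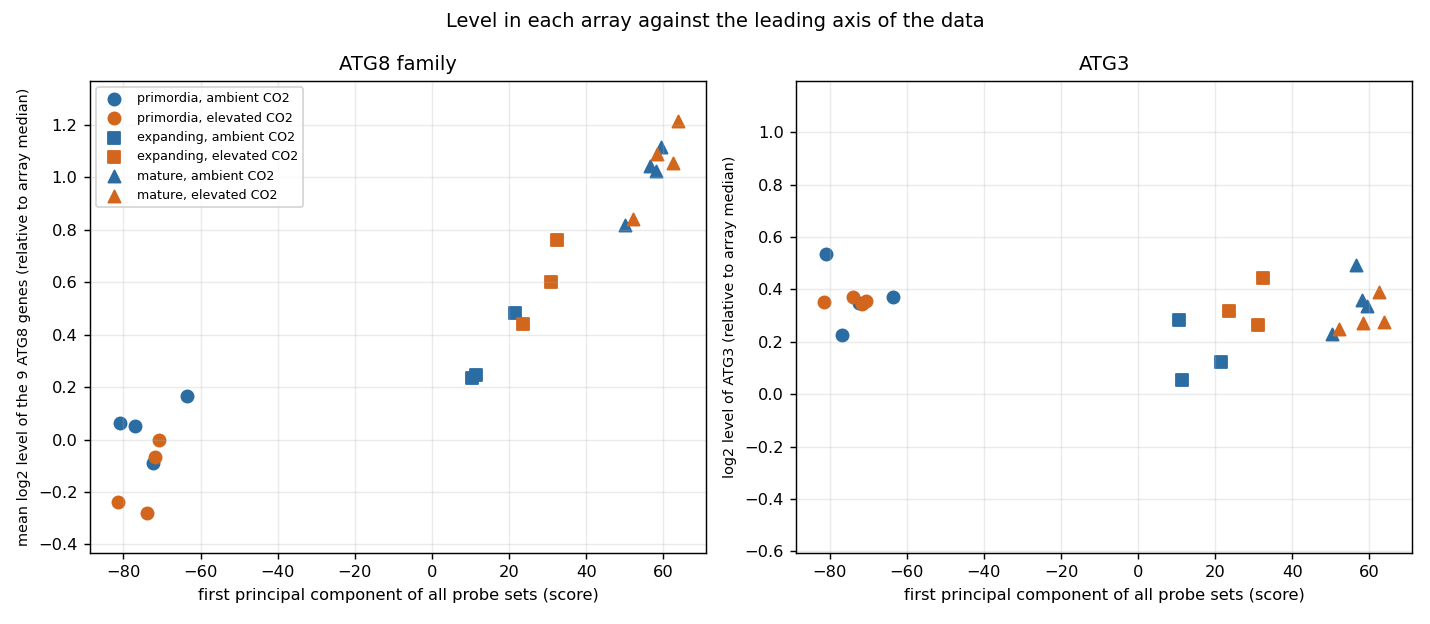
Mean log2 level of the 9 ATG8 genes (left) and log2 level of ATG3 (right) against the first-component score of all probe sets (horizontal axes), with 1 point per array, coloured by CO2 and shaped by stage. On the left the expanding elevated arrays (mean level 0.44 to 0.76) lie on average nearer the mature arrays on both axes than the expanding ambient arrays (0.23 to 0.48), and both axes are read from the same arrays.

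In primordia the sign was the opposite: all 10 members had a negative value at elevated CO2, against 48.0% of probe sets. The change of smallest size was -0.015 (ATG3). The changes of ATG3, ATG8E and ATG8G each turned positive in at least 1 fit with an array left out. The members also share these arrays, so their signs are not independent. No member was called, with 1 of 12511 probe sets called (0.00799%), and 1 member had an unadjusted p under 0.05, against 3.77% of probe sets. That member was ATG8B, at -0.63 ± 0.18 log2 units (95% interval -1.01 to -0.24, limma adjusted p = 0.845). Without elevated primordia replicate 3 its change was -0.38. ATG8D, at -0.25 ± 0.13 (95% interval -0.53 to 0.023), was the other member whose elevated arrays all lay below its ambient arrays, 2 of 10 against 1.72% of probe sets. ATG8H was at -0.31 ± 0.16, ATG8F at -0.13 ± 0.10 and ATG8I at -0.12 ± 0.12, and the 10 changes had a median of -0.11.

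**Figure D4:**
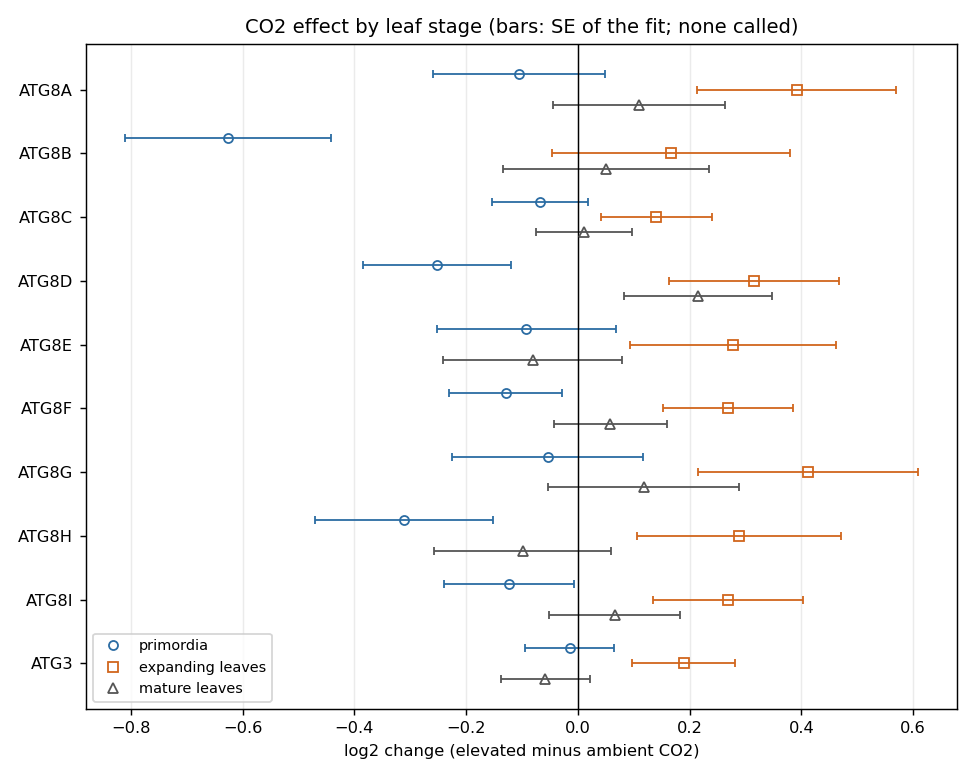
Log2 difference between elevated and ambient CO2 for each member (horizontal axis) in primordia, expanding and mature leaves, with moderated SE as bars. All 10 estimates are negative in primordia, some of them very small, and positive in expanding leaves, and none passes an adjusted p under 0.05.

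The difference of the CO2 effect between stages was tested in the same fit. Between expanding leaves and primordia it was positive for all 10 members (0.20 to 0.79), against 45.2% of probe sets, and no member was called, with 0% of probe sets called. Of the members 6 had an unadjusted p under 0.05, against 11.9% of probe sets: ATG8B at 0.79 ± 0.28, ATG8H at 0.60 ± 0.24, ATG8D at 0.57 ± 0.20, ATG8A at 0.50 ± 0.24, ATG8F at 0.40 ± 0.15 and ATG8I at 0.39 ± 0.18, with adjusted p of the 10 members from 0.318 to 0.557. Without elevated primordia replicate 3 the value of ATG8B was 0.54. Between mature leaves and primordia no member was called, against 0.00799% of probe sets, and ATG8B (0.68 ± 0.26, adjusted p = 0.309) and ATG8D (0.47 ± 0.19, adjusted p = 0.321) had an unadjusted p under 0.05, 2 of 10 members against 12.6% of probe sets in limma's test. Between mature and expanding leaves the 10 values ran from -0.39 to -0.10, with none called against 0.0320% of probe sets and none at an unadjusted p under 0.05 against 10.2%. An F test over the 3 stages called no member, against 0.0320% of probe sets, with adjusted p from 0.288 to 0.624 and 2 of 10 members at an unadjusted p under 0.05 against 13.8% of probe sets. These comparisons share their arrays, and so do the 10 members. Neither the 3 sets of values nor the members within a set are therefore independent.

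Across the 22 arrays the 36 pairs of ATG8 genes correlated at Pearson's r of 0.43 to 0.98, with a median of 0.85, as a description of probe sets that share arrays and stages. The highest pairs were ATG8F with ATG8I (0.98) and ATG8A with ATG8D (0.97), and the lowest was ATG8E with ATG8G (0.43). After the group means were subtracted the 36 values ran from -0.21 to 0.81 with a median of 0.41, and 35 were positive. ATG3 correlated with the 9 ATG8 genes at -0.09 to 0.11 over all arrays and at -0.15 to 0.36 after group means were subtracted.

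Among 6772 other probe sets with exactly 1 gene, those most like a member were ranked by Pearson's r over the 22 arrays. The gene most like ATG8I was GAMMA-VPE (0.988), which encodes the vacuolar processing enzyme γVPE, a protease of the lytic vacuole, followed by the glyoxalase II gene GLX2-1 (0.986) and AT3G13062 (0.985). For ATG8F they were AT1G27290 (0.991), ATGP4 (0.989) and AT1G11700 (0.989), and for ATG8C they were ATGP4 (0.980), AT1G68300 (0.977) and AT4G13270 (0.9753). For ATG8A they were AT4G28400 (0.971), AT1G53030 (0.971) and AT5G21090 (0.970), and for ATG8D AT4G28400 (0.984), AT5G21090 (0.982) and AT4G25900 (0.974), so that 2 of the 3 genes were shared. For ATG8E the first was AT2G24390 (0.888), the second was SAG101 (0.882), a gene named for its rise in senescing leaves, and AT1G31130 (0.881) followed. The genes for ATG8B were AT3G03870 (0.921), AT5G41400 (0.918) and AT5G06700 (0.917). Those for ATG8G were AT2G23780 (0.888), DPL1 (0.872) and AT5G67490 (0.871), and those for ATG8H were AT1G53400 (0.902), AT5G24170 (0.901) and AT3G60480 (0.891). For ATG3 the values were lower, at 0.717 for ATCOAE, 0.675 for LUL1 and 0.668 for AT3G24120. All these values include the shared change with stage. After group means were subtracted, r was lower for every gene listed with an ATG8 gene. It then ran from 0.45 (ATG8G with DPL1) to 0.91 (ATG8D with AT4G28400), with 0.77 for ATG8I with GAMMA-VPE.

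Of 35 other listed autophagy genes 9 were measured, which here means that a probe set was annotated to that gene alone. In the conjugation machinery ATG4B, the protease that cuts ATG8, rose from primordia to mature leaves by 0.89 ± 0.11 at ambient and 0.88 ± 0.11 at elevated CO2, and ATG16, which anchors the conjugating complex to the membrane, by 0.50 ± 0.10 and 0.55 ± 0.10. In the ATG1 kinase complex that starts autophagy, 4 of 5 measured genes rose: ATG101 by 0.93 ± 0.14 and 0.72 ± 0.14, ATG1A by 0.63 ± 0.14 and 0.58 ± 0.14, ATG1T by 0.43 ± 0.18 and 0.70 ± 0.18, and ATG1C by 0.36 ± 0.12 and 0.56 ± 0.12. ATG1B was at 0.13 ± 0.086 and -0.053 ± 0.086 and passed no test in this comparison. Of the phosphatidylinositol 3-kinase complex, ATG14A rose by 1.09 ± 0.21 and 0.85 ± 0.21, and VPS38, at -0.14 ± 0.12 at ambient CO2, was not called. In total 7 of 9 rose and 0 fell at each CO2 level, with medians of 0.50 and 0.58, against the 39.8% and 39.2% of probe sets called higher. In the first step 4 of these 9 were called higher at ambient and 5 at elevated CO2, against 35.1% and 36.0% of probe sets, and in the second 3 and 2, against 19.7% and 16.9%. None was called between CO2 levels at any stage, the value with the largest size being that of ATG14A in expanding leaves (0.67 ± 0.25, adjusted p = 0.221).

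**Figure D5:**
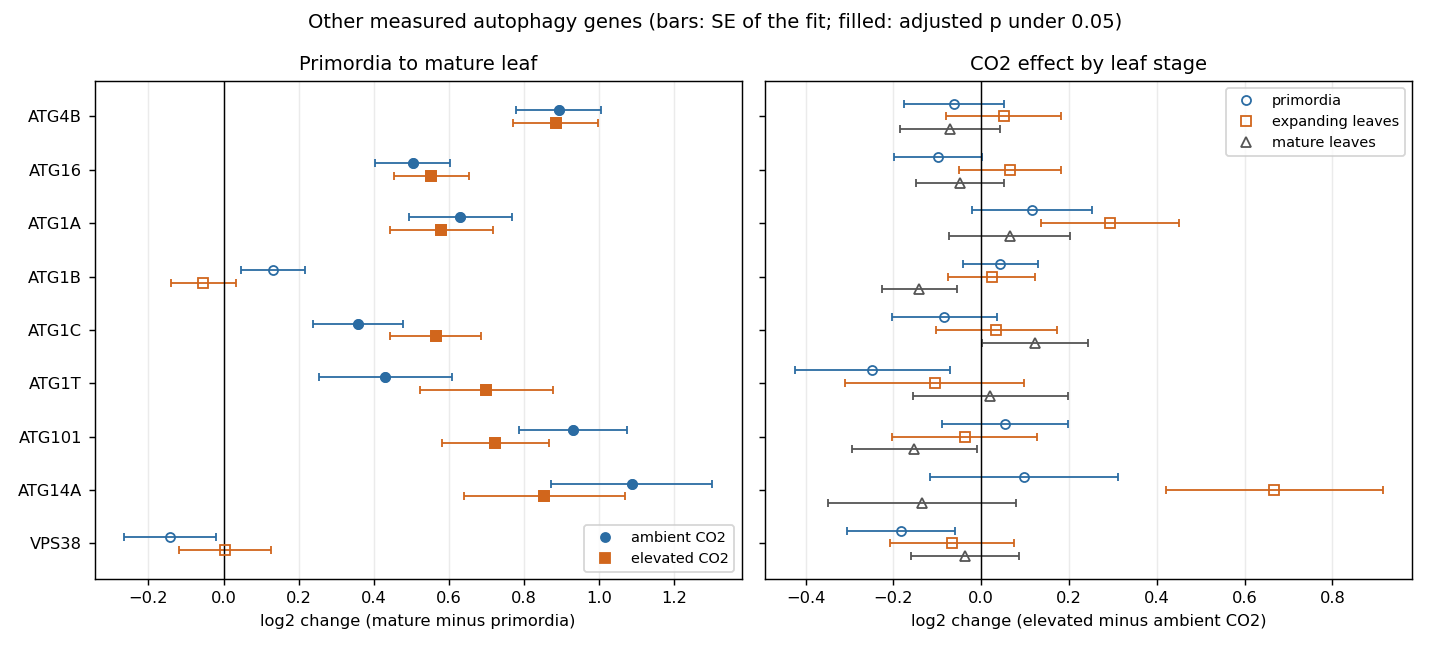
Log2 change of the 9 other measured autophagy genes from primordia to mature leaves at ambient and elevated CO2 (left) and between CO2 levels in each stage (right), with moderated SE as bars and filled points for an adjusted p under 0.05. On the left 7 of 9 genes are filled and positive at each CO2 level, ATG1B and VPS38 are not, and on the right no point is filled.

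Genes that act around the pathway were sparsely measured. γVPE rose from primordia to mature leaves by 2.70 ± 0.22 log2 units at ambient and 2.93 ± 0.22 at elevated CO2, and SAG101, which acts with the immune regulator EDS1, by 1.24 ± 0.25 and 1.77 ± 0.25. They were the 1 measured gene of 5 listed vacuolar proteases and of 11 listed senescence genes. RAPTOR1B, a subunit of the TOR kinase complex that restrains autophagy, was the 1 measured of 6 listed TOR and SnRK1 genes and was called in no stage step. The defining markers of meristem, xylem, phloem, trichome and epidermis on the lists had no probe set annotated to them alone, so the share of those cells in each stage was not tested.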

How the data were processed

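RNA of 22 leaf samples was hybridised to Affymetrix arrays, and the deposited table holds 1 log2 value per probe set and array, as the authors made it, with array medians at 0. No source used here names the background correction, summary or build behind them. The 59 control probe sets were left out, leaving 12511 tested. Genes were named by Entrez ID through the platform annotation and the TAIR10.1 RefSeq gene table, with 6782 probe sets naming exactly 1 gene, 262 several and 5467 none. A model with 6 group means was fitted to all probe sets with limma 3.58.1 in R 4.3.3 (lmFit, eBayes, 16 residual degrees of freedom), and p-values were adjusted by Benjamini-Hochberg over all 12511, with calls at an adjusted p under 0.05. The code was tested on simulated data. Arrays are labelled as replicates without more detail outside primordia, so p-values measure the spread between these samples. The number of arrays limits the precision.

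The members and the gene lists were chosen with earlier results of these data known. Genes named beside the members were the 3 with the highest Pearson's r to each member over the 22 arrays, and all measured genes of the lists. Alternatives were other scalings, a filter on low probe sets, array weights, another variance fit, a fit on the compared groups alone, a replicate block, leaving out arrays and, chosen after seeing the data, a 3′ minus 5′ covariate.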

Additional observations from a re-analysis of the deposited data

Results flagged for a closer look

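Dixon's test at 95% was run on the 40 sets of 4 arrays that the 10 members form in primordia and mature leaves, and it singled out 2 values, where chance flags about 1 in 20. ATG8B in elevated primordia replicate 3, at -3.30, lay far below the other 3 arrays of its group (-2.22 to -2.35). ATG8I in elevated primordia replicate 2, at 1.68, lay above the other 3 (1.37 to 1.41). Groups of 3 arrays were not tested.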

How the results depend on the processing

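Each result was recomputed in up to 32 settings, of which 22 left out 1 array. Of the 88 changes of single members followed through them, 2679 values kept direction and side of the threshold, 45 lost a call, 9 gained one and 13 changed sign, none of these 13 called in either fit. Leaving out an array outside the compared groups cannot move a change, only its p-value. Many of the 2679 values therefore could not change direction, and the tally overstates how stable the changes are. It also leaves out 32 other member changes, all of them changes between CO2 levels or differences of the CO2 effect between stages. Of these 32, 13 changed sign in at least 1 setting, and none was called in any. The number of members called from primordia to mature leaves was 8 or 9 at each CO2 level. The 8 marks no lost call, because the filter on low probe sets, set at the 25th percentile, removed ATG8B. At each CO2 level ATG8B was called in all 30 settings that held it, and every other ATG8 gene in all 31. For every CO2 comparison the number of members called was 0 in all settings run. From expanding to mature leaves at elevated CO2 the count of 7 became 2 without elevated mature replicates 3 and 4, and ran from 4 to 7 with 1 array left out. From primordia to expanding leaves at ambient CO2 it ran from 3 to 6 with 1 array left out. A replicate block gave 9 and 6 calls in the ambient and elevated steps from expanding to mature leaves, and within a stage it gave 0 calls between CO2 levels. The deviations of same-numbered replicates of the CO2 groups correlated at -0.25 to 0.26 over 11 pairs, and over 0.1 in 4. These values cannot show whether the numbers pair samples, and the main fit did not pair them. The sign changes among the 88 followed changes were near 0. ATG8E from expanding to mature leaves at elevated CO2 was -0.015 after quantile normalization, -0.016 when centred on the 75th percentile and -0.039 with array weights, and ran from -0.18 to 0.16 with 1 array left out. ATG3 was 0.0029 from primordia to expanding leaves at elevated CO2 with the 3′ minus 5′ covariate and 0.044 from primordia to mature leaves at ambient CO2 with array weights. With 1 array left out, ATG8H from primordia to expanding leaves at ambient CO2 ran from -0.045 to 0.21. ATG3 then ran from -0.063 to 0.027 in that step at elevated CO2, from -0.086 to 0.0042 from expanding to mature leaves at elevated CO2 and from -0.064 to 0.039 from primordia to mature leaves at ambient CO2. The cause of these changes was not tested. The limits are 3 or 4 arrays per group and log2 values whose background step is unknown, so signal over background could not be judged for ATG8B.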
